A study of Mus musculus with 21 samples.

Results

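The MHC class II genes of the mouse lung were described from 9 rows of a deposited RNA-seq count table, out of 38924 gene symbols. The rows were taken by gene symbol: Cd74, H2-Aa, H2-Ab1, H2-Eb1, H2-DMa, H2-DMb1, H2-Oa, H2-Ob and Ciita. These 9 symbols were chosen with earlier results of these data known. All 9 passed the filter on low counts, which left 15770 genes for testing. RNA came from female A/J mice at 22 weeks. The study asked how lung inflammation alters gene expression in carcinogen-induced lung tumours, and how agents given in the diet modify it. NNK, a tobacco-specific nitrosamine that causes lung tumours, was injected into the peritoneum 1 time at 100 mg/kg. LPS, the endotoxin of Gram-negative bacteria, was instilled into the nose weekly from week 1 at 5 µg per mouse. The 7 groups of 3 libraries were Control (vehicle), LPS (vehicle, then LPS), NNK, NNK_LPS (both) and 3 diet groups given NNK and LPS. Their diets held 20 µmol/g of silibinin (Sil, group NNK_LPS_Sil), of indole-3-carbinol (I3C, group NNK_LPS_I3C) or of each (NNK_LPS_Sil_I3C). Per the labels, the 5 groups with NNK were dissected tumours pooled from 3 mice per group, whereas Control and LPS were normal lung. Tumour tissue and NNK treatment therefore cannot be told apart. Whether the 3 libraries of each group were separate animals is not stated, so p-values measure only the spread between libraries, which may be technical.

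MHC class II molecules present peptides from the endocytic pathway to CD4+ T cells. In the lung they are made by dendritic cells, B cells and macrophages, and also by alveolar type 2 cells. The α and β chains (H2-Aa with H2-Ab1, and the E chains with H2-Eb1) assemble on the invariant chain Cd74, which fills the groove. The chaperone H2-DM (H2-DMa with H2-DMb1) then exchanges its remnant for other peptides, and H2-DO (H2-Oa with H2-Ob), best known from B cells, inhibits H2-DM. Ciita is the coactivator that switches the family on. It binds no DNA itself and acts on promoters that carry X and Y boxes bound by the RFX and NF-Y complexes, and interferon-γ is its best known inducer in cells that do not make class II constitutively.

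In the GENCODE annotation of GRCm38, 7 of the 9 genes lay on chromosome 17 within the MHC, Ciita on chromosome 16 (10480059-10528418, plus strand) and Cd74 on another chromosome. On chromosome 17 the order was H2-Oa (34092340-34095234), H2-DMa (34119541-34139101), H2-DMb1 (34153072-34160230), H2-Ob (34238903-34254414), H2-Ab1 (34257689-34269419), H2-Aa (34282744-34287823) and H2-Eb1 (34305867-34316674). H2-Aa is on the minus strand and the other 6 on the plus strand. Antisense genes overlap H2-Eb1, H2-DMa and H2-Oa, Dexi overlaps Ciita, Brd2 overlaps H2-DMa, and H2-DMb1 has a near-identical neighbour, H2-DMb2. The strand setting of the counts is not given in the sources used here, so reads of these pairs may be mixed.

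The promoters are shown because the X and Y boxes are the elements through which Ciita is known to act. The windows read for H2-DMa held no such pair. They began at 34122582 and 34125268, inside a gene span that overlaps Brd2, and no other start of H2-DMa was searched. The relation of the boxes to the LPS response was not tested. RefSeq windows (GRCm38.p6, 250 bases before to 50 after a start) were held for 6 of the 9 genes, in 7 windows. No window was held for Cd74, H2-Ab1 or Ciita. An X core, CNNGNAAC, followed 15 to 45 bases later on the gene's strand by the Y box core ATTGG, occurred in 5 of the 6, H2-DMa being the exception. The pair occurred in 0.664% of 32851 such windows. Each core alone was common, the X core in 39.1% and the Y box core in 37.4% of windows on either strand. The X core was chosen after these promoters had been read, so its presence in them is a description. A stricter X box searched on both strands matched H2-DMb1 alone of the members, and 0.67% of all windows. Neither the interferon-γ activated sequence (GAS, TTCNNNGAA) nor the interferon-stimulated response element (ISRE) was found in these 7 windows, against 8.3% and 3.44% of all windows. At such shares, finding none in 7 windows says little, and the promoters of Ciita were not searched. The stretch of H2-DMb1 is left out, as much of it lay in an exon of the GENCODE annotation. That of H2-Oa had 11 bases in such an exon. The stretches of the other 4 members with the pair, H2-Oa among them, are given 5′ to 3′ on the gene's strand. The X core and Y box core are in capitals.
H2-Oa (chr17:34092285-34092350, plus strand): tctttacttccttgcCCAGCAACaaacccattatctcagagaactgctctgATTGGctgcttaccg
H2-Ob (chr17:34238800-34238862, plus strand): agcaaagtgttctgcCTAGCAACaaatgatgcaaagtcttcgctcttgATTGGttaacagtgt
H2-Aa (chr17:34287857-34287922, minus strand): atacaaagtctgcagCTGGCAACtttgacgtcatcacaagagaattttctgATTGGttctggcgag
H2-Eb1 (chr17:34305758-34305822, plus strand): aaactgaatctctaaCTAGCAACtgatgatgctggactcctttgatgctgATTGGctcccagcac

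Between the cores lay 28 bases in H2-Oa and H2-Aa, 27 in H2-Eb1 and 25 in H2-Ob. The X core began 79 to 94 bases upstream of the start site in these 4 genes. H2-Ob and H2-Oa thus both carried the pair, at gaps of 25 and 28 bases. The relation of the pair to their expression across the groups was not tested.

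**Figure D1:**
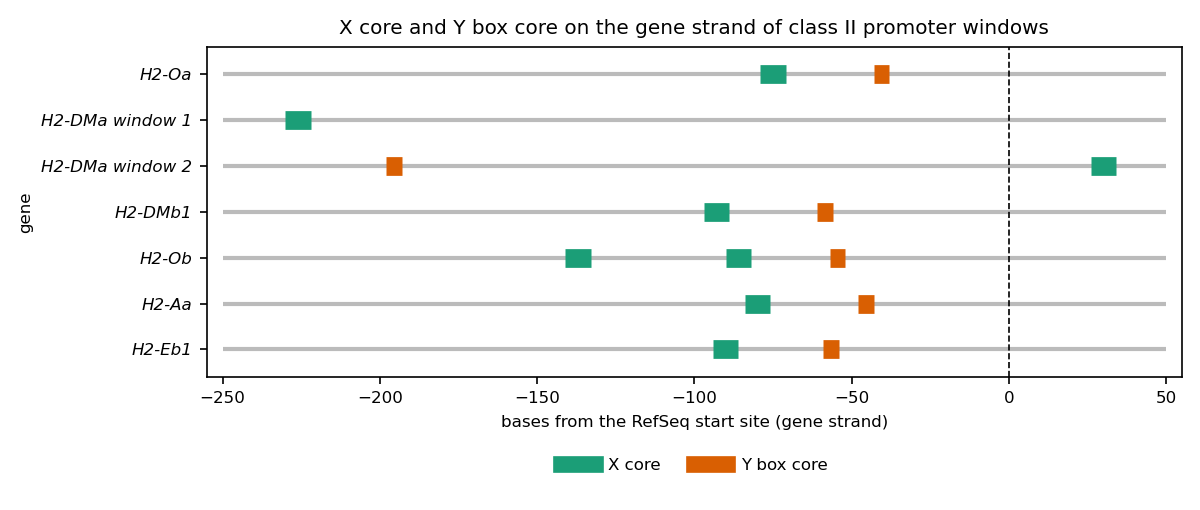
Positions of the X core (green) and Y box core (orange) on the gene strand of the 7 promoter windows of 6 class II genes, in bases from the RefSeq start site (dashed line). In 5 genes an X core lies upstream of a Y box core at like spacing, and in the H2-DMa windows no such pair is present.

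Total counts were 13.3 to 25.3 M per library, and levels are given as CPM, counts scaled to TMM-normalised library sizes. By their mt-Atp8 counts, divided by those of mt-Atp6, the libraries fell into 3 sets that the labels do not name. Set A (8 libraries, ratio 0.0206 to 0.0236) held Control, NNK, LPS 1 and LPS 2, set B (8 libraries, 0.0782 to 0.0876) held LPS 3, NNK_LPS, NNK_LPS_Sil and NNK_LPS_I3C 1, and set C held the other 5. NNK_LPS thus shared no set with Control or NNK. In 4 groups 1 library had the highest level for all 9 genes, namely Control 3, NNK 3, NNK_LPS_I3C 3 and NNK_LPS_Sil_I3C 2. Each also had the highest summed B cell markers of its group, at 337 CPM in NNK_LPS_I3C 3 and 241 CPM in NNK_LPS_Sil_I3C 2. In Control 3 and NNK 3 these summed B cell markers (8 genes such as Ms4a1 and Cd79b) also stood apart, at 232 CPM in each, against 45.5 and 72.5 CPM in the other Control libraries and 98.6 and 104 CPM in the other NNK libraries. This did not hold in every group. LPS 3 was highest for 7 genes but had the lowest sum of its group, 209 CPM against 294 and 217 CPM. NNK_LPS 1 was highest for 8 genes at a sum of 160.1 CPM, below NNK_LPS 3 at 184 CPM. NNK_LPS_Sil 2 was highest for 7 genes and had the highest sum of its group, 154 CPM. The markers of lung tissue were present, Sftpc of alveolar type 2 cells at a mean of 18540 CPM in Control and 8326 CPM in LPS. No gene of the B cell, T cell, dendritic cell, macrophage or alveolar type 2 cell lists had 0 counts in any library.

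Repeated LPS raised nearly the whole family in normal lung. Compared with Control, 8 of the 9 genes rose and H2-Ob did not pass the test (edgeR's quasi-likelihood test, Benjamini-Hochberg adjusted p under 0.05 over all genes tested). The background was high, since 50.0% of all genes tested were called in either direction and 25.3% were higher. The median log2 fold change was 2.31 over the 9 genes and -0.02 over all genes tested. DESeq2 called 8 of the 9 as well.

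The classical chains were high at rest and rose together. H2-Aa stood at 379, 415 and 532 CPM in Control and at 1458, 1554 and 1589 CPM in LPS. H2-Ab1, its β partner, stood at 215, 218 and 315 CPM in Control and at 1138, 1166 and 1413 CPM in LPS. H2-Eb1, the β chain of the E molecule, stood at 115, 119.7 and 179.8 CPM in Control and at 676, 752 and 796 CPM in LPS. For each chain, every LPS library lay above every Control library. The log2 fold changes were 1.79 ± 0.20 (SE, n = 3 libraries per group, edgeR adjusted p = 1.61e-06) for H2-Aa, 2.31 ± 0.21 (edgeR adjusted p = 2.32e-07) for H2-Ab1 and 2.42 ± 0.33 (edgeR adjusted p = 1.75e-05) for H2-Eb1. H2-Ab1 thus increased 4.97-fold.

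Cd74, the invariant chain, had the highest level of the family. It stood at 811, 821 and 1146 CPM in Control and at 3679, 4174 and 4567 CPM in LPS, with no overlap. Its log2 fold change was 2.16 ± 0.19 (edgeR adjusted p = 1.62e-07), a 4.47-fold increase. Per kilobase of the longest principal transcript of each gene (GENCODE), the mean level in Control was 657 CPM for Cd74, 392 CPM for H2-Aa, 206 CPM for H2-Ab1 and 82.7 CPM for H2-Eb1. On that scale H2-DMb1 stood at 32.6 CPM, H2-DMa at 18.1, H2-Ob at 9.42, H2-Oa at 4.02 and Ciita at 2.98. In LPS the order on the same scale was alike at the top, with Cd74 at 2936 CPM per kilobase, but H2-Oa at 28.9 stood above Ciita at 18.9 and H2-Ob at 14.8. Ciita (15.9 to 21.9 CPM per kilobase) and H2-Ob (10.9 to 17.8) overlapped there.

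Both subunits of the peptide exchanger H2-DM rose. H2-DMa stood at 27.3, 23.9 and 39.0 CPM in Control and at 175, 158 and 204 CPM in LPS. H2-DMb1 stood at 34.9, 43.8 and 58.4 CPM in Control and at 158, 148 and 185 CPM in LPS. Neither gene overlapped between the groups. The log2 fold change was 2.57 ± 0.21 (edgeR adjusted p = 7.45e-08) for H2-DMa and 1.84 ± 0.17 (edgeR adjusted p = 2.44e-07) for H2-DMb1.

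The subunits of the inhibitor H2-DO did not move alike. H2-Oa stood at 2.05, 2.94 and 8.13 CPM in Control and at 23.9, 24.6 and 45.9 CPM in LPS, with no overlap. H2-Ob stood at 16.4, 10.5 and 48.6 CPM in Control and at 47.5, 29.1 and 42.0 CPM in LPS, and Control 3 lay above every LPS library. H2-Oa had a log2 fold change of 2.84 ± 0.70 (edgeR adjusted p = 0.00315), the largest of the 9 and the least precise. For H2-Ob it was 0.65 ± 0.54 (95% interval -0.49 to 1.79, edgeR adjusted p = 0.334). Without Control 3 the value for H2-Ob was 1.57 (edgeR adjusted p = 0.0247), so 1 library decided its call.

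Ciita, the coactivator, stood at 9.33, 12.7 and 31.6 CPM in Control and at 132, 95.4 and 114 CPM in LPS. The groups did not overlap, the lowest LPS library being well above the highest Control library. The log2 fold change was 2.66 ± 0.39 (edgeR adjusted p = 3.39e-05), a 6.33-fold increase, and 3.67% of all genes tested had a higher fold change.

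**Figure D2:**
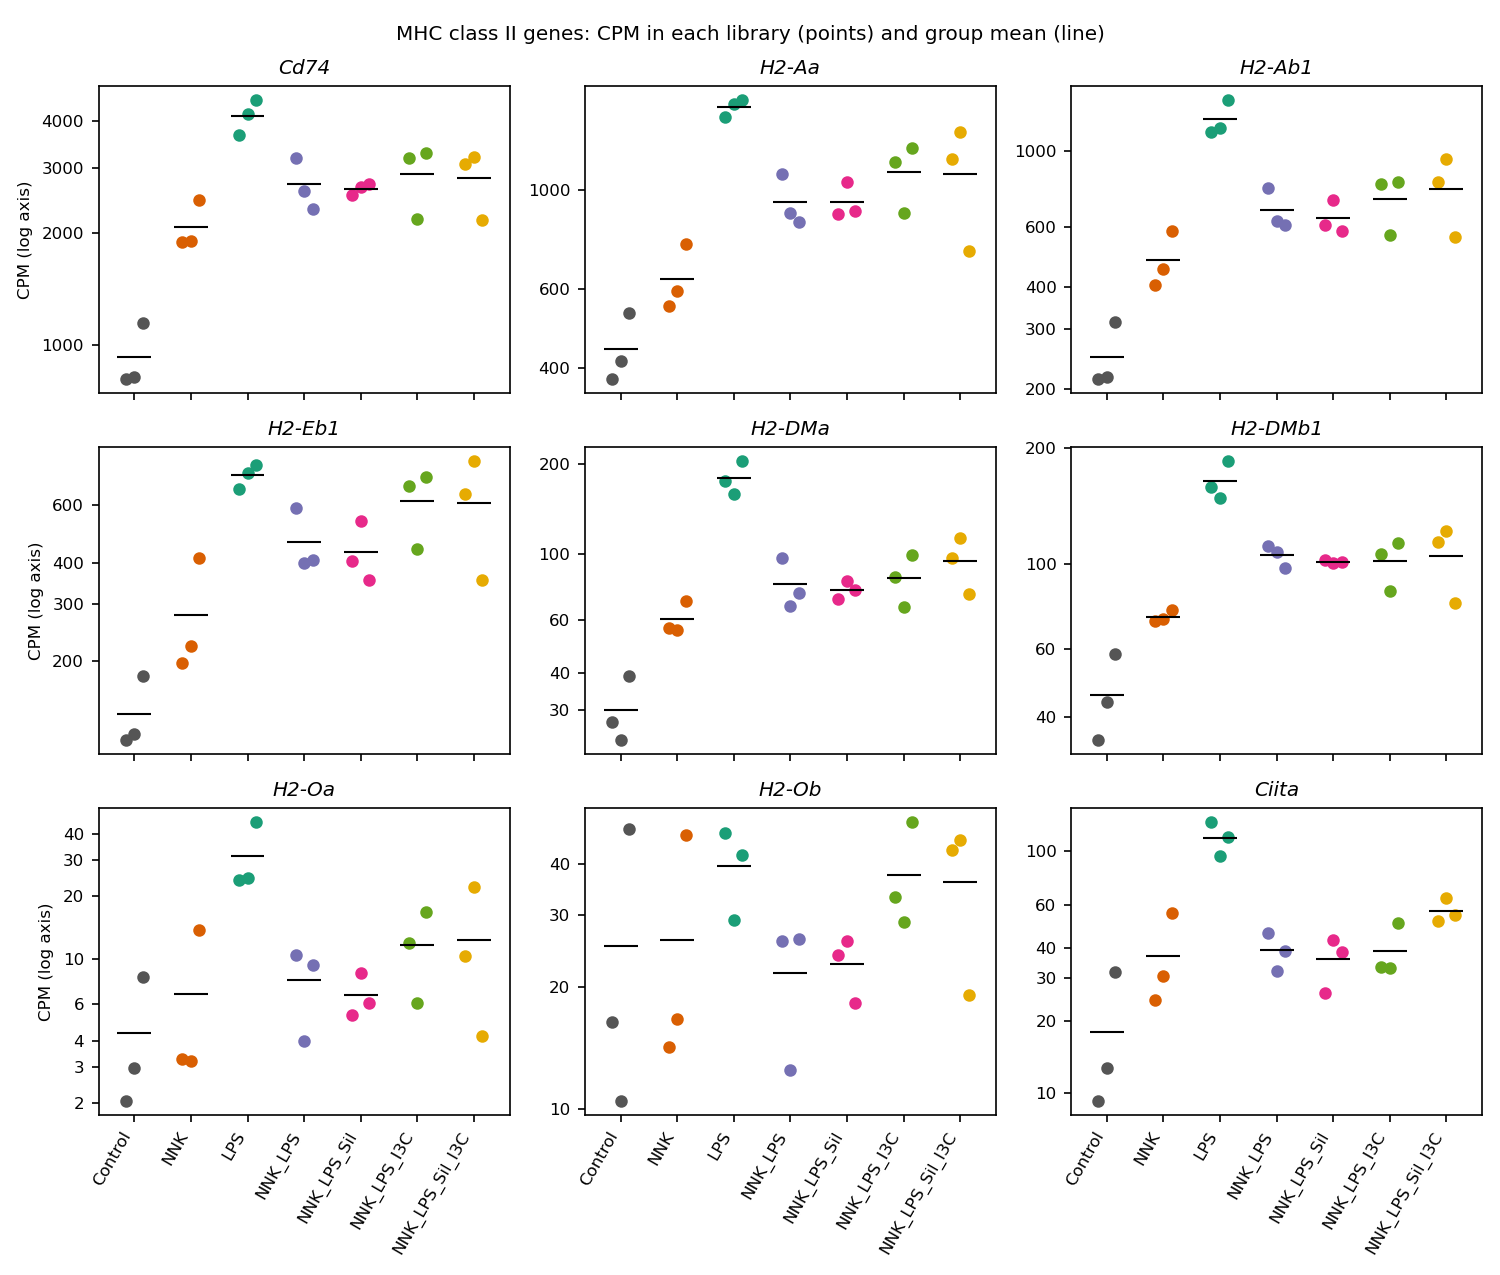
CPM (log axis) of the 9 class II genes in each of the 21 libraries (points, 3 per group) with the group mean (line). The LPS libraries are above all Control libraries for 8 genes, and for H2-Ob Control 3, at 48.6 CPM, is above all 3 LPS libraries.

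Other genes of the pathway were read from lists chosen with earlier results of these data known. All 3 other class II genes in the table rose with LPS. H2-DMb2 increased by 2.30 ± 0.27 on the log2 scale (edgeR adjusted p = 3.96e-06), and H2-Eb2 by 3.32 ± 0.55 (edgeR adjusted p = 0.000103) from 1.41 to 14.3 CPM. H2-Ea-ps, which encodes the Eα chain in strains that express the E molecule and is annotated as a polymorphic pseudogene in the C57BL/6 reference, had 2429 to 4020 counts in the Control libraries. It increased from 212 ± 41.1 CPM (SD, n = 3) to 722 ± 47.6 CPM with LPS, by 1.77 ± 0.19 on the log2 scale (edgeR adjusted p = 1.28e-06).

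The factors that bind class II promoters moved little. Of 7 (the RFX and NF-Y subunits and Creb1), 1 rose and 2 fell with LPS, and the median log2 fold change was -0.09. Rfx5, the RFX subunit that is also regulated in the class II system, increased from 38.6 to 57.2 CPM (0.57 ± 0.17, edgeR adjusted p = 0.00875). Creb1 fell by 0.30 (edgeR adjusted p = 0.00945) and Rfxank fell by 0.24 (edgeR adjusted p = 0.0483) on the log2 scale.

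Genes of the interferon-γ signal rose in 6 of 7 cases, with a median log2 fold change of 1.19. Irf1, an interferon-induced transcription factor that acts on a Ciita promoter, increased from 149 to 645 CPM (2.11 ± 0.19, edgeR adjusted p = 2.51e-07). Ifng itself had 0, 1 and 0 counts in Control and 141, 82 and 71 counts in LPS, a ratio of 300 with a 95% counting interval of 53.4 to 11889.7, which covers counting error only. Of 9 genes for peptide supply and trafficking, 8 rose and 1 fell. Ctss, the protease that cleaves the invariant chain, increased from 291 to 1748 CPM (2.59 ± 0.27, edgeR adjusted p = 1.11e-06), and March1, the ligase that removes class II from the surface, from 12.8 to 47.1 CPM (1.87 ± 0.25, edgeR adjusted p = 1.32e-05). All 5 costimulation and class II ligand genes rose, among them Cd86 from 9.39 to 56.7 CPM (2.59 ± 0.29, edgeR adjusted p = 1.86e-06).

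Markers of cells that carry class II moved in LPS too. In whole tissue, more cells of a type and more RNA per cell cannot be told apart. Of the macrophage and monocyte markers 5 of 7 rose and 1 fell, and their summed level was 581 to 663 CPM in Control and 1222 to 1331 CPM in LPS. All 8 T cell markers rose (summed 26.1 to 52.5 CPM against 141 to 184 CPM). Of the B cell markers 2 of 8 rose (summed 45.5 to 232 CPM against 209 to 294 CPM). Dendritic cell markers were split, 2 rising and 3 falling of 8 (summed 108 to 109 CPM against 97.1 to 114 CPM). Of the alveolar type 2 cell markers 4 of 8 fell and none rose (summed 29739 to 35376 CPM against 18468 to 22228 CPM). The part of these cell types in the class II change was not tested.

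In tumours without LPS, the family was moderately above normal lung. Compared with Control, 5 of the 9 genes were higher in NNK (Cd74, H2-Ab1, H2-Eb1, H2-DMa and H2-DMb1), while 6.46% of all genes tested were higher and 13.1% were called in either direction. The median log2 fold change was 0.95 over the 9 genes and -0.02 over all genes tested. Cd74 stood at 1891, 1902 and 2457 CPM in NNK, above every Control library, with a log2 fold change of 1.17 ± 0.19 (edgeR adjusted p = 0.00308). H2-Ab1 stood at 405, 450.5 and 585 CPM (0.95 ± 0.20, edgeR adjusted p = 0.00963). H2-DMa stood at 56.6, 55.5 and 69.4 CPM (1.01 ± 0.20, edgeR adjusted p = 0.00714). These genes did not overlap with Control.

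H2-Eb1 at 198, 223 and 413 CPM (1.01 ± 0.32, edgeR adjusted p = 0.0466) and H2-DMb1 at 70.9, 72.0 and 75.9 CPM (0.67 ± 0.17, edgeR adjusted p = 0.017) also lay above Control. H2-Aa at 551, 595 and 757 CPM lay above Control as well but did not pass (0.52 ± 0.19, edgeR adjusted p = 0.0815). Ciita at 24.4, 30.4 and 55.7 CPM overlapped with Control (1.04 ± 0.38, edgeR adjusted p = 0.0778). H2-Oa at 3.28, 3.21 and 13.8 CPM (0.62 ± 0.70, 95% interval -0.86 to 2.10) and H2-Ob at 14.2, 16.7 and 46.9 CPM (0.04 ± 0.54, 95% interval -1.10 to 1.19) did not pass, and in both NNK 3 lay far above the other libraries of its group. The number of genes called was 2 without Control 2, 3 without Control 1, 3 without NNK 1, 7 without Control 3 and 5 in the full data, so the count rested on single libraries. DESeq2 called 7 of the 9. All libraries of both groups were in set A. In the same comparison 5 of 8 alveolar type 2 cell markers and 1 of 7 macrophage and monocyte markers rose, and none of 8 B cell, 8 dendritic cell or 8 T cell markers was called. Their part in the class II difference was not tested.

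In tumours with LPS, 7 of the 9 genes were above Control, where 12.0% of all genes tested were higher and 24.6% were called. H2-Oa and H2-Ob were the other 2. Cd74 stood at 3191, 2604 and 2321 CPM in NNK_LPS (1.55 ± 0.19 against Control, edgeR adjusted p = 0.000135). H2-Aa stood at 1085, 890.5 and 848 CPM (1.09 ± 0.19, edgeR adjusted p = 0.00122), and H2-Ab1 at 778, 625 and 608 CPM (1.43 ± 0.21, edgeR adjusted p = 0.000291). H2-Eb1 stood at 588, 399 and 408 CPM (1.75 ± 0.32, edgeR adjusted p = 0.00158). Every one of these libraries lay above every Control library.

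H2-DMa at 96.4, 67.0 and 73.8 CPM (1.39 ± 0.20, edgeR adjusted p = 0.00031) and H2-DMb1 at 111, 107 and 97.6 CPM (1.20 ± 0.17, edgeR adjusted p = 0.000225) were also above Control. Ciita stood at 46.1, 32.1 and 38.6 CPM, just above the highest Control library (1.12 ± 0.38, edgeR adjusted p = 0.0407), and its call was lost without any 1 of Control 1, Control 2 and the 3 NNK_LPS libraries. H2-Oa stood at 10.4, 4.00 and 9.33 CPM (0.85 ± 0.69) and H2-Ob at 25.9, 12.5 and 26.2 CPM (-0.23 ± 0.54), and both overlapped with Control. NNK_LPS and Control shared no library set. With a term for the set the count of called genes was 0 and Cd74 had a log2 fold change of 1.33 ± 0.35 (edgeR adjusted p = 0.0927). In the same comparison 7 of 8 alveolar type 2 cell markers, 4 of 8 T cell markers and 3 of 7 macrophage and monocyte markers rose, and 1 of the latter fell. Their part in the difference was not tested.

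Between tumours with and without LPS no class II gene was called by edgeR's quasi-likelihood test, and none by DESeq2, although 4 of the 9 had an unadjusted p under 0.05, as had 16% of all genes tested. Of all genes tested edgeR called 0.0951% (15 genes), and DESeq2 called 494 genes. H2-DMb1 (0.52 ± 0.16, edgeR adjusted p = 0.14), H2-Aa (0.57 ± 0.19, edgeR adjusted p = 0.172) and H2-Ab1 (0.48 ± 0.20, edgeR adjusted p = 0.256) were each higher in all 3 NNK_LPS libraries than in any NNK library. For this and the other comparisons, the share of all genes tested whose libraries did not overlap was not counted. The log2 fold changes of the 9 genes ran from -0.27 to 0.74 with a median of 0.39, against 0.01 over all genes tested. Ciita, at a mean of 39.0 ± 7.00 CPM (SD, n = 3) in NNK_LPS and 36.9 ± 16.6 CPM in NNK, had a difference of 0.08 (95% interval -0.69 to 0.85). The 2 groups lay in different library sets, linked only through the LPS libraries, and with a term for the set the count was also 0.

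Most class II genes were lower in NNK_LPS tumours than in LPS-treated normal lung. In that comparison 7 of the 9 genes were lower in the tumours, where 20.9% of all genes tested were lower and 38.2% were called. Ciita was lower by 1.54 on the log2 scale, a log2 fold change of -1.54 ± 0.37 (edgeR adjusted p = 0.00342). For H2-Oa it was -1.99 ± 0.66 (edgeR adjusted p = 0.0265), for H2-DMa -1.18 ± 0.20 (edgeR adjusted p = 0.000189) and for Cd74 -0.61 ± 0.19 (edgeR adjusted p = 0.0146). H2-Eb1 (-0.67 ± 0.31, edgeR adjusted p = 0.103) and H2-Ob (-0.88 ± 0.54, edgeR adjusted p = 0.215) did not pass. No library of either gene overlapped between the groups, but the share of all genes without overlap was not counted. Of all genes tested, 47.1% had an unadjusted p under 0.05 by edgeR's quasi-likelihood test. The calls of Cd74 and H2-Oa were each lost without LPS 3, without NNK_LPS 2 and without NNK_LPS 3. Within set B, where LPS 3 was the single LPS library and was assumed to vary like the others, 5 of the 9 were lower. In NNK tumours without LPS 8 of the 9 genes were below the LPS group, where 25.1% of all genes tested were lower and 47.0% were called, and their log2 fold changes ran from -2.21 to -0.61 over all 9 genes. Cell markers moved in the same comparisons. In NNK_LPS against LPS 6 of 7 macrophage and monocyte markers were lower and 1 higher (summed 692 to 925 CPM against 1222 to 1331 CPM), 7 of 8 alveolar type 2 cell markers were higher (summed 47794 to 66003 CPM against 18468 to 22228 CPM), and 2 of 8 T cell and 1 of 8 B cell markers were lower. In NNK against LPS 8 of 8 T cell and 5 of 7 macrophage and monocyte markers were lower, and 6 of 8 alveolar type 2 cell markers were higher. The part of these cells in the class II differences was not tested.

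The response to LPS itself was smaller in tumours than in normal lung. The difference between the LPS effect in tumours (NNK_LPS against NNK) and that in lung (LPS against Control) passed the test for 7 of the 9 genes, all in the direction of a smaller effect in tumours, while 14.4% of all genes tested were lower and 25.1% called. The median was -1.78 over the 9 genes and 0.03 over all genes tested. Ciita showed the largest called difference, -2.58 ± 0.52 (edgeR adjusted p = 0.00201), its log2 fold change with LPS being 2.66 in lung and 0.08 in tumours. For H2-DMa the difference was -2.18 ± 0.28 (edgeR adjusted p = 4.56e-05), for H2-Ab1 -1.83 ± 0.29 (edgeR adjusted p = 0.000232) and for Cd74 -1.78 ± 0.26 (edgeR adjusted p = 0.000132). For H2-Eb1 it was -1.68 ± 0.45 (edgeR adjusted p = 0.0115), for H2-DMb1 -1.32 ± 0.23 (edgeR adjusted p = 0.000648) and for H2-Aa -1.22 ± 0.27 (edgeR adjusted p = 0.00356).

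H2-Oa (-2.61 ± 0.96, edgeR adjusted p = 0.0576) and H2-Ob (-0.92 ± 0.76, edgeR adjusted p = 0.41) did not pass. H2-Oa passed without Control 3 (-3.42, edgeR adjusted p = 0.0238), without NNK 1 (edgeR adjusted p = 0.0478) or without NNK 2 (edgeR adjusted p = 0.0426). DESeq2 called 8 of the 9 genes. With a term for the library set edgeR called 7, as it did without the term. That term took the step from set A to set B from LPS 3 against LPS 1 and LPS 2 alone. Control and NNK lay wholly in set A and NNK_LPS wholly in set B. The part of the library sets in the difference was not tested. Among other genes of the system the LPS effect was smaller in tumours for 3 of 3 other class II genes, 6 of 7 interferon-γ signal genes, 7 of 9 genes for peptide supply and trafficking, 4 of 5 costimulation and ligand genes, and none of the 7 promoter factors, of which Rfxank had a larger value (0.53 ± 0.14, edgeR adjusted p = 0.00981). Irf1 had a difference of -1.92 ± 0.27 (edgeR adjusted p = 8.51e-05). Ifng had 3, 1 and 7 counts in NNK and 9, 3 and 14 counts in NNK_LPS. Of the macrophage and monocyte markers 5 of 7 had a smaller LPS effect in tumours and 1 a larger value. Of the alveolar type 2 cell markers 3 of 8 had a larger value, of the dendritic cell markers 1 of 8 had a larger and 1 a smaller value, and of the 8 B cell and 8 T cell markers none was called. The part of these cells in the difference was not tested.

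**Figure D3:**
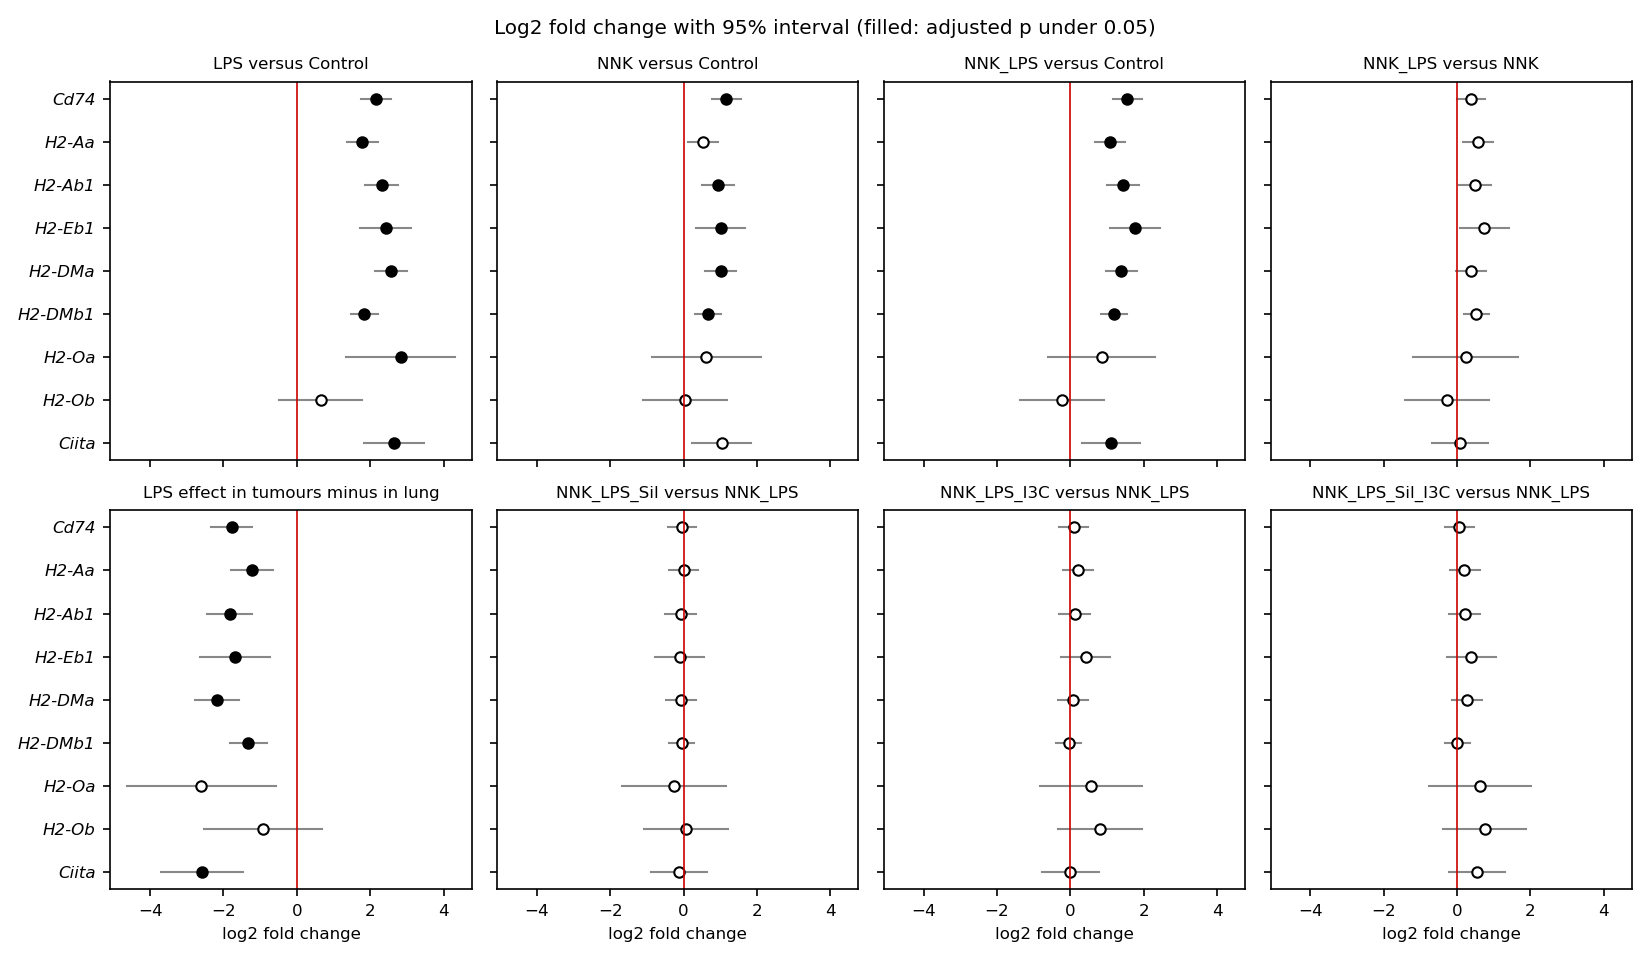
Log2 fold changes of the 9 class II genes (points) with 95% intervals (lines) in 8 comparisons, filled where the edgeR adjusted p was under 0.05. In LPS versus Control 8 points are filled and to the right of 0, in the panel of the LPS effect in tumours minus lung 7 are filled and to the left, and in the 3 panels of dietary agents none is filled.

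Neither dietary agent, nor their combination, moved a class II gene past the threshold. In each of the 3 comparisons with NNK_LPS, edgeR's quasi-likelihood test and DESeq2 called 0 of the 9 genes, and 0 had an unadjusted p under 0.05. Of all genes tested edgeR called 0% with Sil (578 genes, 3.67%, had an unadjusted p under 0.05, and DESeq2 called 0 genes). With I3C edgeR called 2.02% (318 genes), 20.6% had an unadjusted p under 0.05 and DESeq2 called 1035 genes. With both agents edgeR called 1.36% (214 genes), 16.5% had an unadjusted p under 0.05 and DESeq2 called 667 genes. With Sil the log2 fold changes ran from -0.25 to 0.07, and Cd74 stood at 2528, 2657 and 2714 CPM, within the range of NNK_LPS. The 95% interval for Cd74 was -0.43 to 0.35. H2-Oa had the widest of the intervals with Sil, -1.68 to 1.17. With I3C, H2-Ob at 33.1, 28.7 and 50.6 CPM lay above all NNK_LPS libraries (0.80 ± 0.54, edgeR adjusted p = 0.421), 2 of these 3 libraries being in set C. With both agents, Ciita at 51.3, 63.9 and 54.3 CPM lay above all NNK_LPS libraries (0.54 ± 0.36, edgeR adjusted p = 0.484), but the groups were in different library sets.

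The other genes overlapped with NNK_LPS in all 3 diets. With I3C their log2 fold changes ran from -0.05 (H2-DMb1) to 0.55 (H2-Oa), and with both agents from 0 (H2-DMb1) to 0.75 (H2-Ob). The summed B cell markers were 92.2 to 184 CPM in NNK_LPS, 166 to 337 CPM with I3C and 114 to 241 CPM with both, and none of the 8 was called. The part of B cells in the H2-Ob level was not tested. All 3 diets share the NNK_LPS libraries as reference.

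Across the 7 groups the order of means was the same at both ends for 8 genes, Control lowest and LPS highest, with the 5 tumour groups between. NNK was the lowest tumour group for Cd74, H2-Aa, H2-Ab1, H2-Eb1, H2-DMa and H2-DMb1. Among the 4 groups with NNK and LPS no difference from NNK_LPS passed the test, and the diet groups were not tested against each other. H2-Ob was the exception, lowest in NNK_LPS at 21.5 ± 7.83 CPM and highest in LPS at 39.5 ± 9.46 CPM (SD, n = 3). Between its lowest and highest library of all 21, H2-Ob spanned 4.84-fold, H2-Aa 4.19-fold, Cd74 5.63-fold, Ciita 14.1-fold and H2-Oa 22.4-fold. Cd74 varied least between libraries with Sil (2633 ± 95.1 CPM) and H2-DMb1 likewise (101 ± 0.736 CPM).

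The balance between partners differed by group, by description and with no test. H2-Ob exceeded H2-Oa in counts in most libraries, the ratio being 2.07 to 8 in the 18 libraries outside LPS. In LPS it was 0.913, 1.18 and 1.99, below all others. The ratio of H2-DMa to H2-DMb1 was 1.06 to 1.10 in LPS and 0.545 to 0.931 elsewhere. H2-Aa to H2-Ab1 was 1.69 to 1.90 in Control and 1.12 to 1.57 elsewhere. Cd74 to H2-Aa was 1.98 to 2.15 in Control, 3.20 to 3.43 in NNK and between these in the other 15 libraries, so that NNK tumours had the most invariant chain counts per α chain count. Ciita to H2-Ab1 was 0.0415 to 0.116 over all 21 libraries and overlapped between Control (0.0433 to 0.101) and LPS (0.0807 to 0.116).

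**Figure D4:**
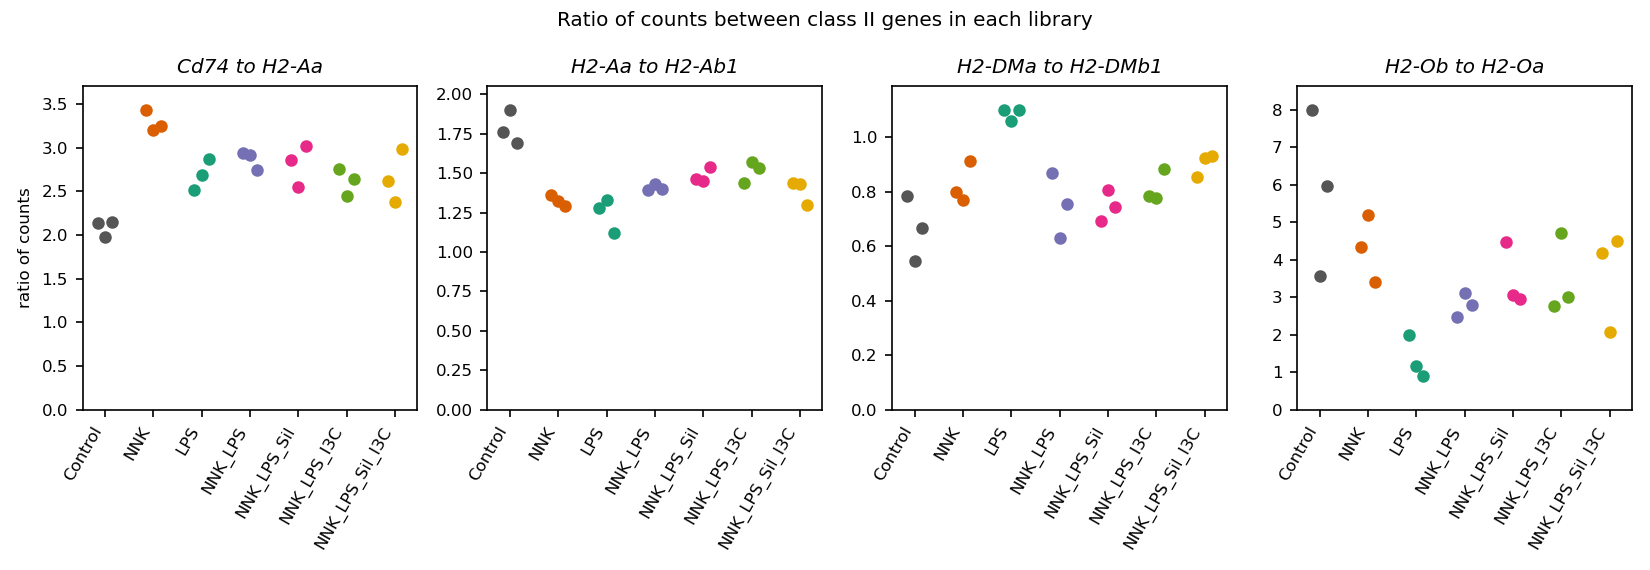
Ratios of raw counts between pairs of class II genes in each of the 21 libraries (points, by group; axes start at 0). For H2-Ob to H2-Oa the 3 LPS libraries are the lowest (0.913 to 1.99), for H2-DMa to H2-DMb1 they are the highest (1.06 to 1.10), and for Cd74 to H2-Aa Control is lowest and NNK highest.

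H2-Ob was the member that followed the rest of its family least closely, and the genes most like it included B cell markers. Over the 21 libraries, its Pearson correlation with the mean of the other 8 genes (standardised log2 CPM) was 0.647, against 0.897 for H2-Oa, 0.913 for Ciita and 0.939 to 0.98 for the other 6. Among the genes most like H2-Ob, of 13466 candidates, were Siglecg (0.972), Fcrla (0.965), Cd79b (0.947) and Ms4a1 (0.946). These genes were picked for their high correlation, so their values cannot be set against the 0.647. The correlation of H2-Ob with the whole B cell list was not computed. The ratio of H2-Ob counts to summed counts of the 8 B cell markers was 0.134 to 0.23 over all libraries, a 1.72-fold span. In Control it was 0.209 to 0.23, above the 18 other libraries at 0.134 to 0.202. These are descriptions over libraries that share group, library set and depth.

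**Figure D5:**
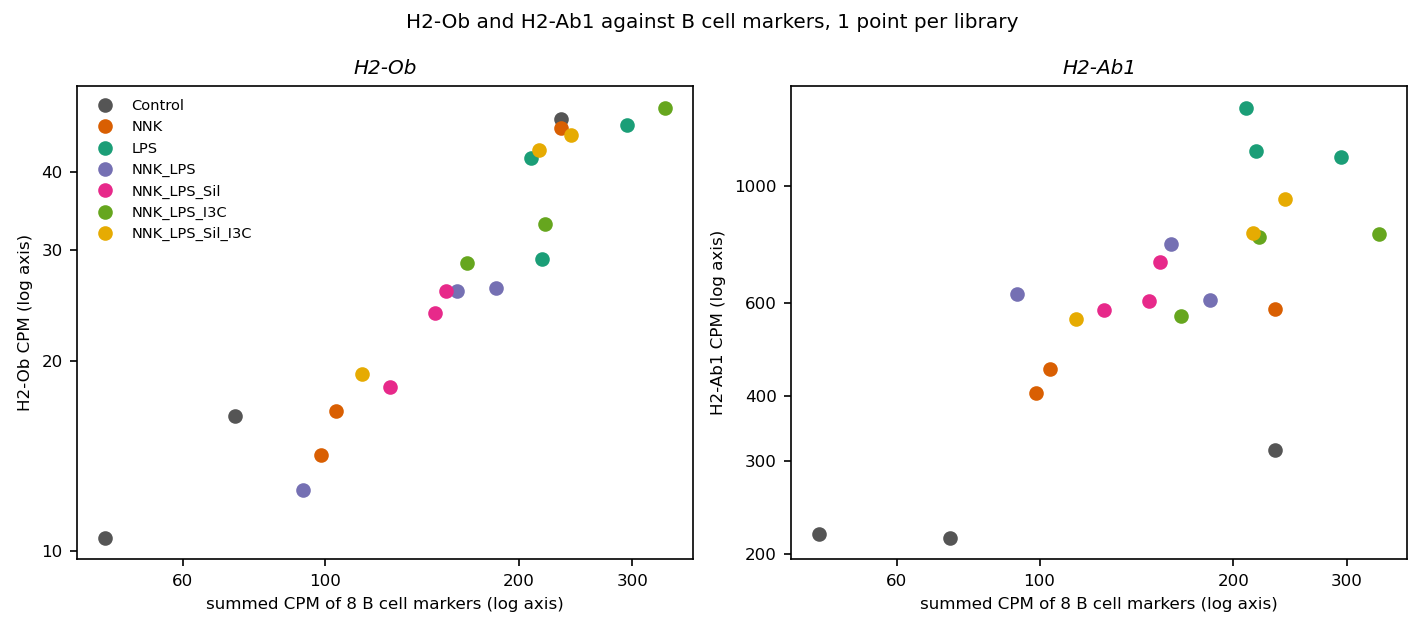
CPM of H2-Ob (left) and H2-Ab1 (right) against the summed CPM of 8 B cell markers, 1 point per library, coloured by group, all axes log. H2-Ob rises with the sum over the libraries, with Control highest for its sum. For H2-Ab1, Control 3 and the LPS libraries have like sums (209 to 294 CPM) and levels of 315 CPM against 1138 to 1413 CPM.

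The 8 genes outside the 9 whose log2 CPM followed the family mean most closely were Il2rb (0.972), H2-DMb2 (0.972), H2-Q7 (0.971), H2-Q4 (0.97), H2-Eb2 (0.965), H2-K1 (0.963), Zc3h12d (0.963) and Nlrc5 (0.963). Of these, H2-K1, H2-Q4 and H2-Q7 encode class I molecules, and Nlrc5 is the class I counterpart of Ciita. Il2rb, a receptor chain of T and natural killer cells, is not an antigen presentation gene. For Ciita alone the 5 were Tap1 (0.961), H2-Q4 (0.946), H2-Q6 (0.946), Iigp1 (0.945) and Nlrc5 (0.944). Members of the H2-Q group have close paralogs, between which the authors' counting could split reads. The most tightly coupled pair within the family was H2-Ab1 with H2-DMa (0.985 over 21 libraries).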

How the data were processed

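The deposited table held whole-number read counts per gene symbol for 21 libraries, and every column was matched to a sample by its title. Per the submitters' processing notes the build was mm10. For aligner, counter, annotation and strand setting, the details were not given in the sources used here. The build mm10 is a C57BL/6 genome whereas the mice were A/J, so reads of A/J class II alleles that failed to align are not known. Per the labels' protocols, libraries were made with the TruSeq RNA kit.

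The analysis used edgeR 4.0.16 (R 4.3.3) with TMM scaling, filterByExpr with a minimum count of 10, and a robust quasi-likelihood fit to all 7 groups (14 residual degrees of freedom, common biological coefficient of variation 0.168). Benjamini-Hochberg adjustment ran over 15770 genes, and genes were called at an adjusted p under 0.05. DESeq2 1.42.0 was an alternative. On simulated counts for LPS versus Control (15627 genes, 200 changed) 175 were recovered (87.5%) with 8 false calls. The changed genes had a median estimated log2 change of 1.02 in size, and no library set effect was simulated. In the data 50.0% of genes tested were called in that comparison, so the simulation was a check of the code in a simpler setting. No 2 libraries of a group held the same values. Coordinates and lengths came from GENCODE on GRCm38, the promoters from RefSeq on GRCm38.p6.

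The 9 genes and all lists were chosen with earlier results of these data known. All 9 genes were named, other genes by smallest adjusted p within a list, up to 4, with Ifng, Rfx5, H2-Ea-ps and Ctss, or by likeness over the 21 libraries among tested genes with a mean of at least 1 CPM. Replicate numbers are those of the labels' descriptions, while the titles of the NNK groups carry other numbers. Libraries with the same replicate number deviated together, at correlations over 0.1 in all 3 pairs, for NNK_LPS with NNK_LPS_I3C alone of the groups compared (0.158, 0.276 and 0.262). There a replicate block changed no call of a class II gene. For NNK with Control the correlations were 0.178, 0.0332 and 0.29. Alternatives were relative log expression size factors, no filter, DESeq2, the compared groups alone, a replicate block, a library set term, libraries of 1 set, and leaving out each library. Leaving out Control 3 and NNK 3 together was added after seeing the data. Some genes covered by the rule for named genes are not reported here.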

Additional observations from a re-analysis of the deposited data

Results flagged for a closer look

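The LPS effect differed between tumours and normal lung, by the interaction term of edgeR's quasi-likelihood fit, for 7 class II genes. On the log2 scale the effect in tumours minus that in lung was -2.58 for Ciita, -2.18 for H2-DMa, -1.83 for H2-Ab1, -1.78 for Cd74, -1.68 for H2-Eb1, -1.32 for H2-DMb1 and -1.22 for H2-Aa.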

How the results depend on the processing

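Over the alternatives run, all 492 alternative values of the 34 gene results given singly and called kept their direction, and 456 stayed called. Of 220 values of uncalled results given singly, 13 became called and 8 turned. Leaving out each library gave 8 to 9 genes called in LPS versus Control, 2 to 7 in NNK versus Control, 6 to 7 in NNK_LPS versus Control, 5 to 7 in NNK_LPS versus LPS, 7 to 8 in NNK versus LPS, 7 to 8 for the difference in LPS effect, and 0 in NNK_LPS versus NNK and the 3 diets. The library set term left 0 genes called in NNK_LPS versus Control, against 7, and turned H2-Oa there to -0.07, the cause not being tested. H2-Ob turned in NNK versus Control without Control 1 (-0.16), Control 2 (-0.30) or NNK 3 (-0.69), and H2-Oa without NNK 3 (-0.43), the highest values being 0.97 for H2-Ob and 1.45 for H2-Oa, both without Control 3. In NNK_LPS versus Control H2-Ob turned without Control 3 (0.71, also with NNK 3 left out) and without NNK_LPS 2 (0.08), its lowest value being -0.56 without Control 2. NNK versus Control fell to 3, 2 and 3 genes without Control 1, Control 2 and NNK 1. Libraries with the same replicate number in the labels' descriptions correlated from -0.358 to 0.463 (17 of 63 pairs over 0.1). With the replicate block the number of class II genes called was 8 in LPS versus Control, 5 in NNK versus Control, 7 in NNK_LPS versus Control and the same as without it in every other comparison, but in NNK versus Control H2-Eb1 was lost (adjusted p = 0.0599) and Ciita gained (adjusted p = 0.0453), edgeR quasi-likelihood test. H2-Oa had the fewest counts of the 9 genes in Control, 199 over the 3 Control libraries, 126 of them in Control 3.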
